A study of Homo sapiens with 10 samples.

Results

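The mitochondrially encoded genes were examined in bulk RNA-seq of RPTEC/TERT1 cells, a human proximal tubule epithelial line immortalised with telomerase. All rows of the count table whose identifier carries a symbol beginning with MT- were taken, which gave 37 of 61587 genes: 13 mRNAs, 2 rRNAs and 22 tRNAs. The experiment compared 5 irradiated samples, which received 10 Gy, with 5 mock-irradiated control samples, and RNA was taken from both groups on day 7. The design text and the methods name this line for all 10 samples, which were cultured in wells of plates, although the labels' cell line entry carries a running number from RPTEC/TERT1 in the first sample to RPTEC/TERT10 in the last, and whether that number has a meaning is not stated. Nothing in the sources says that replicates were independent cultures, so the p-values below measure the spread between these samples. Control and irradiated samples share the replicate numbers 1 to 5 and were compared in pairs. The libraries were made from poly-A RNA. Totals ran from 78081911 to 131555873 gene counts in control samples and from 66269311 to 101594948 in irradiated samples. Epithelial identity was checked on markers: 10 of 13 proximal tubule and epithelial markers reached 200 counts over the 10 samples, including PAX8, KRT8 and EPCAM, whereas LRP2, HNF4A and SLC34A1 held 17, 12 and 86 counts, so these defining proximal tubule genes were near absent.

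Human mitochondria carry a small circular genome whose products all serve oxidative phosphorylation. Its mRNAs encode subunits of complexes I, III, IV and V, and its rRNAs and tRNAs serve the mitochondrial ribosome that translates them. Both strands are transcribed as long precursors from a control region, and the tRNAs, which lie between most of the other genes, are cut out to release the mRNAs and rRNAs. Proximal tubule cells are known for their dependence on oxidative phosphorylation. In the GRCh38 reference the molecule has 16569 bases, of which 1211 lie in no gene, and 1122 of these form the control region between MT-TP and MT-TF. Of the members, 28 lie on the plus strand and 9 on the minus strand, the latter being MT-ND6 and 8 tRNAs.

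Mitochondrial genes took a larger share of counts in the irradiated sample of each of the 5 pairs. In control samples 1 to 5 the share of all gene counts was 8.56%, 8.61%, 10.7%, 7.78% and 8.26%. In irradiated samples 1 to 5 it was 9.99%, 9.87%, 12.2%, 9.09% and 8.999%. The groups overlapped, because control sample 3 lay above 4 of the irradiated samples, but every irradiated sample was above its own control. The mean was 8.78% ± 1.11 (SD, n = 5) in control and 10.0% ± 1.31 (SD, n = 5) in irradiated samples, and the difference within pairs was 1.26 ± 0.316 percentage points (SD, n = 5 pairs), between 0.738 and 1.57. A share over chosen genes was given no test. In bulk RNA, a change in the number of mitochondrial transcripts per cell and a change in the nuclear RNA they are divided by cannot be told apart, nor can fewer cells be told from less RNA per cell.

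The 3 classes contributed unequally. Of 92497294 mitochondrial counts, mRNAs held 76.3%, rRNAs 23.6% and tRNAs 0.0625%. The mRNA share went from 6.73% ± 1.01 to 7.64% ± 1.17 (SD, n = 5 each), with a difference of 0.247 to 1.18 percentage points within pairs. It was smallest in replicate 5. The rRNA share went from 2.04% ± 0.160 to 2.39% ± 0.229 (SD, n = 5 each), with a difference of 0.0839 to 0.488 percentage points, smallest in replicate 2. Both classes overlapped between groups, and both were higher in the irradiated sample in 5 of 5 pairs. The tRNA share went from 0.00450% ± 0.00065 to 0.00736% ± 0.00165 (SD, n = 5 each) and was the only class whose groups did not overlap. The control maximum of 0.00544% lay just below the irradiated minimum of 0.00576%. MT-TP alone held 96.0% of the tRNA counts, so this share describes mainly that gene and not the class.

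**Figure D1:**
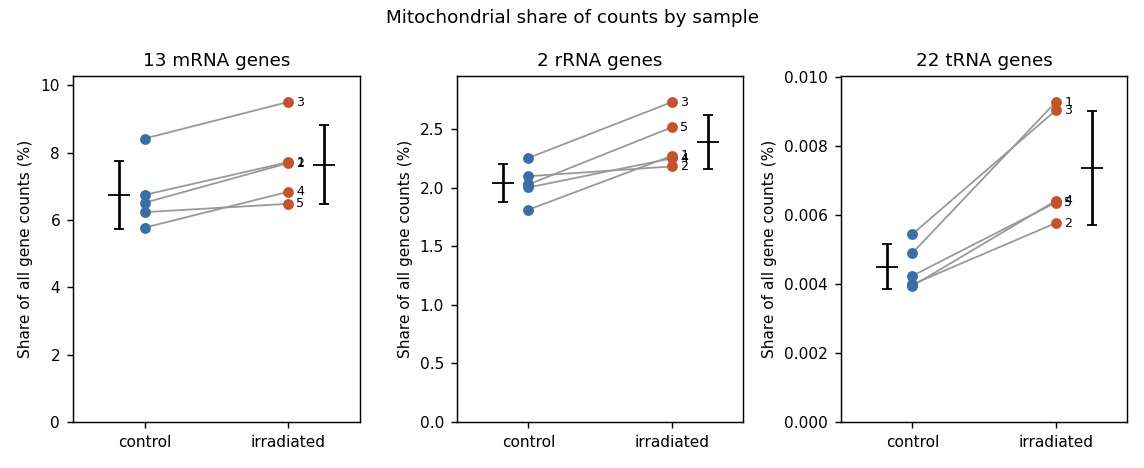
Share of all gene counts (%, y axis) on the mRNA, rRNA and tRNA genes of the mitochondrial genome in each sample, with grey lines joining the control and irradiated sample of 1 replicate number and black marks giving the mean and SD of 5 samples. All 15 lines rise from control to irradiated, and replicate 3 is the highest control in each panel.

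Each gene was then tested with edgeR's quasi-likelihood test, which models the counts with replicate number as a block, on the 19006 genes whose counts summed to 200 or more. Levels are CPM, the counts a gene would have in a library scaled to 1000000 counts by TMM, and a gene was called when its Benjamini-Hochberg adjusted p over all genes tested was under 0.05. Of the 37 members 19 were tested: all 13 mRNAs, both rRNAs and 4 tRNAs. The other 18 members, all tRNAs, fell under 200 counts. In this test 11 of the 19 were called higher in irradiated samples and 0 lower. Over all genes tested 46.6% were called, 23.9% higher and 22.7% lower, so many genes moved in this contrast. Without replicate 1 or without replicate 4 the number called higher was 5, and with no replicate block it was 1, MT-TP, while 0 were called lower in each of these fits.

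The 13 mRNAs had log2 fold changes between 0.16 and 0.33, with a median of 0.23 against -0.01 for all genes tested. A total of 9 rose and 4 did not pass. In 12 of the 13 the irradiated level exceeded the control level in all 5 pairs, as it did in 26.4% of all genes tested, and MT-ATP6 was higher in 4 of 5 pairs. None of the 13 had groups that did not overlap, as 14.6% of all genes tested had in the higher direction.

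Complex I, the NADH dehydrogenase that feeds electrons into the chain, has 7 subunits encoded here, and 5 rose. MT-ND4L rose by a log2 fold change of 0.31 (SE 0.05, edgeR adjusted p = 0.00210). Its level was 357, 407, 575, 375 and 377 CPM in control samples 1 to 5 and 487, 506, 652, 454 and 481 CPM in irradiated samples 1 to 5. Apart from control sample 3, every control sample was below every irradiated one. MT-ND2 rose by 0.31 (SE 0.07, edgeR adjusted p = 0.00693), from 2982 ± 633 to 3725 ± 888 CPM (SD, n = 5 each). MT-ND3 rose by 0.26 (SE 0.06, edgeR adjusted p = 0.0107), from 840 ± 151 to 1005 ± 193 CPM. The other subunits called, MT-ND5 and MT-ND4, had smaller values of 0.22 (SE 0.07, edgeR adjusted p = 0.0285) and 0.23 (SE 0.07, edgeR adjusted p = 0.0358). MT-ND1, at 0.18 (SE 0.07, edgeR adjusted p = 0.0507), and MT-ND6, at 0.17 (SE 0.07, edgeR adjusted p = 0.0831), did not pass, though both were higher in 5 of 5 pairs. MT-ND6 is the only mRNA of the minus strand, and the log2 fold change of its row lay within the range of the plus-strand mRNAs. The counts do not separate the strands, so the MT-ND6 row can hold RNA of both. MT-ND4 and MT-ND5 were not called without replicate 1 (adjusted p = 0.134 and 0.101) or without replicate 4 (0.129 and 0.122), MT-ND5 was not called without replicate 5 (0.0584), and MT-ND3 was not called without replicate 4 (0.0522).

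MT-CYB, cytochrome b and the only subunit of complex III encoded in mitochondria, rose by 0.33 (SE 0.07, edgeR adjusted p = 0.00698). It stood at 4281, 4512, 5645, 4059 and 4334 CPM in control samples 1 to 5 and at 5548, 5589, 7625, 5249 and 4804 CPM in irradiated samples 1 to 5. Control sample 3 was again the one control above some irradiated samples. For complex IV, the cytochrome c oxidase that passes electrons to oxygen, 2 of 3 subunits rose. MT-CO1, its catalytic subunit, rose by 0.33 (SE 0.09, edgeR adjusted p = 0.0168), from 19232 ± 4232 to 24106 ± 5094 CPM (SD, n = 5 each), and MT-CO3 by 0.28 (SE 0.07, edgeR adjusted p = 0.0165), from 6794 ± 1209 to 8293 ± 1850 CPM. MT-CO2, which accepts electrons from cytochrome c, had 0.17 (SE 0.07, edgeR adjusted p = 0.0915) and did not pass. Neither MT-CO1 nor MT-CO3 was called without replicate 1 (adjusted p = 0.0666 and 0.0527) or without replicate 4 (0.0738 and 0.0634).

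For complex V, the ATP synthase, MT-ATP8 rose by 0.23 (SE 0.08, edgeR adjusted p = 0.0406) and MT-ATP6 did not pass, at 0.16 (SE 0.08, edgeR adjusted p = 0.155). MT-ATP8 was not called without replicate 1 (adjusted p = 0.107), 2 (0.0886) or 4 (0.144). These reading frames overlap, so the sequence of MT-ATP8 is shown to mark where a fragment cannot be given to a single gene. It lies at chrM:8366-8572 of GRCh38 on the plus strand, and the 46 bases it shares with MT-ATP6 are in capitals.
MT-ATP8: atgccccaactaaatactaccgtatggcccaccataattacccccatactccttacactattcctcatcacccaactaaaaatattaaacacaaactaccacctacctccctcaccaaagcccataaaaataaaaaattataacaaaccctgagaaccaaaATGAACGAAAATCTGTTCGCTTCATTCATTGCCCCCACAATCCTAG
The counting kept only fragments that touched 1 gene, so neither gene received a fragment that reached those 46 bases. MT-ND4L and MT-ND4 likewise share 7 bases, and MT-ATP6 and MT-CO3 share 1. Their values and differences rest on the fragments outside the shared bases.

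**Figure D2:**
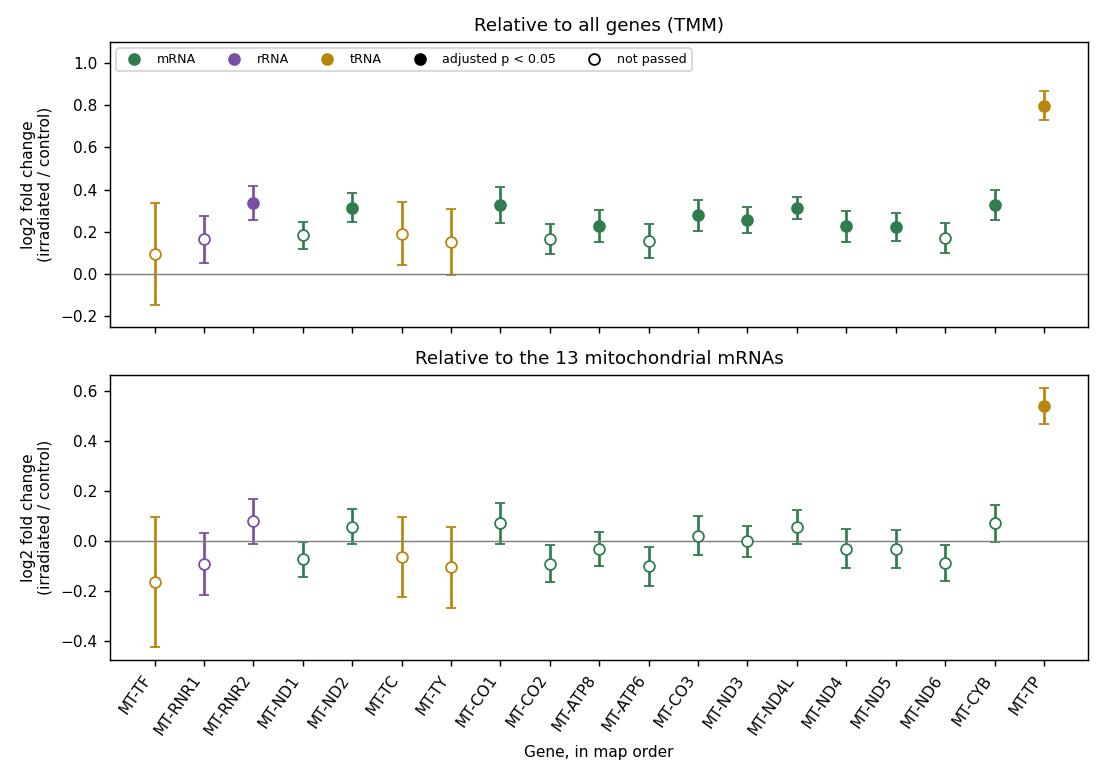
log2 fold change of irradiated over control samples (y axis, bars are the SE) for the 19 tested genes in map order, relative to all genes in the upper panel and to the summed 13 mitochondrial mRNAs in the lower, with filled points for an adjusted p under 0.05. In the upper panel all 19 points lie above 0 and 11 are filled, and in the lower panel MT-TP alone is filled.

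To separate a change within the mitochondrial genome from a change of its total, the same test was run with the summed counts of the 13 mRNAs as library size. The 13 mRNAs themselves make up this library size, so as a set their values must lie around 0, and only differences among them can show. On this scale the 13 mRNAs had log2 fold changes between -0.10 and 0.07, and none was called, with adjusted p between 0.270 and 0.973. Of all genes tested 61.4% were called on this scale, 10.9% higher and 50.5% lower, on a scale whose reference was itself higher in irradiated samples. An interval of 2 standard errors on either side of these values spanned -0.26 to 0.24. The standard errors draw on the spread of all genes tested on this scale. The interval can therefore be wider than the spread of these mRNAs alone would give, and it describes this fit only. MT-CO1 made up 29.1% ± 2.03 (SD, n = 5) of mitochondrial mRNA counts in control and 30.5% ± 1.45 (SD, n = 5) after irradiation, and MT-ATP6 10.3% ± 0.534 and 9.55% ± 0.294. In pairs, the MT-CO1 share was higher in 5 of 5, by 0.504 to 2.42 percentage points, and the MT-ATP6 share lower in 4 of 5. The shares of MT-CO2 and MT-ND1 were lower in 5 of 5 pairs, with mean differences of -0.433 and -0.286 percentage points. These shares are of 1 total and were given no test, and none of the 4 genes was called in the fit on this scale.

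The mRNAs come from shared precursors, yet their counts per kb differed. Per kb of bases that lie in no other gene, MT-CO1 had the highest control level, 12472 ± 2744 CPM per kb (SD, n = 5), and MT-ND4L the lowest of the mRNAs, 1442 ± 309 CPM per kb, a ratio of 8.65. Next to MT-CO1 stood MT-ATP6 with 10653 ± 2142 and the rRNA MT-RNR2 with 10316 ± 1360 CPM per kb. MT-CO3, MT-CO2, MT-ND4, MT-ND6, MT-RNR1, MT-CYB, MT-ND1, MT-ATP8, MT-ND2, MT-ND5 and MT-ND3 followed in that order, from 8677 to 2428 CPM per kb. Among neighbours in this order, the control mean and SD of MT-ND3 and MT-ND4L did not overlap, whereas those of every other pair of neighbours did. MT-ATP6 and MT-RNR2 exchanged places in irradiated samples, where MT-RNR2 was second at 13034 CPM per kb and MT-ATP6 next at 11833, and MT-ATP6 was above MT-RNR2 in 3 of the 10 samples. A level per kb understates short genes such as MT-ATP8 and MT-ND4L, because fragments that reach into a neighbouring gene were not counted. The ratio of 8.65, with MT-ND4L at its lower end, is thus not a ratio of transcript numbers.

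**Figure D3:**
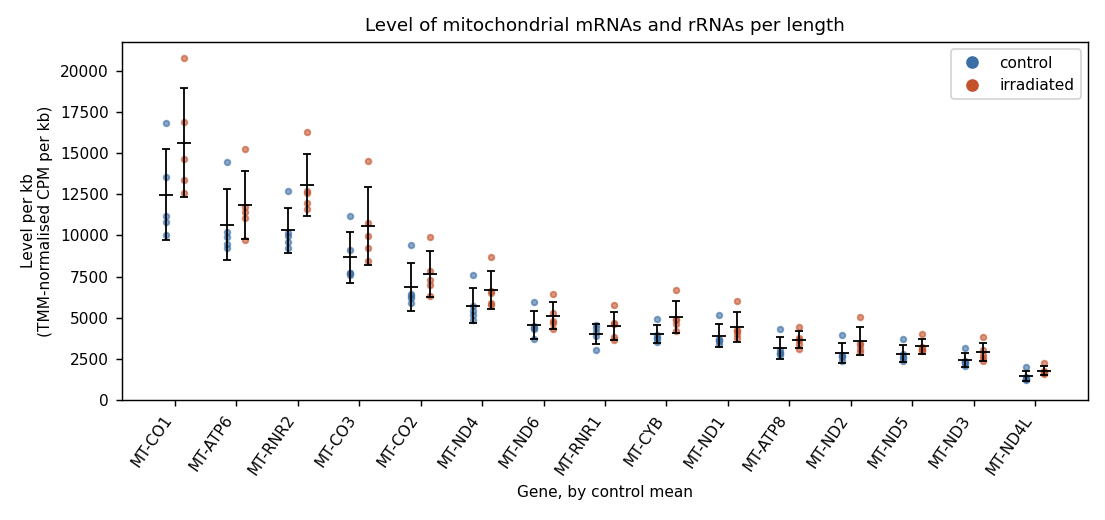
Level of the 13 mRNAs and 2 rRNAs in TMM-normalised CPM per kb (y axis) in order of the control mean, with a point for each of 5 control and 5 irradiated samples and black marks for the mean and SD. The levels fall from MT-CO1 to MT-ND4L by a ratio of 8.65 in control samples, and the irradiated mean lies above the control mean for all 15 genes.

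Of the rRNAs, MT-RNR2, the RNA of the large mitochondrial ribosomal subunit, rose by 0.34 (SE 0.08, edgeR adjusted p = 0.0120). It was at 14383, 15541, 19744, 14927 and 15820 CPM in control samples 1 to 5 and at 19643, 18084, 25392, 18652 and 19828 CPM in irradiated samples 1 to 5. Only control sample 3 reached into the irradiated range. MT-RNR1, the RNA of the small subunit, had 0.16 (SE 0.11, edgeR adjusted p = 0.261), with 2912, 4195, 3701, 4370 and 3955 CPM in control and 3642, 3496, 4455, 4400 and 5518 CPM in irradiated samples 1 to 5. It did not pass and was lower in the irradiated sample of replicate 2, and without replicate 2 it was called, at 0.28 (adjusted p = 0.0441). Without replicate 1 MT-RNR2 was not called (adjusted p = 0.0649). The ratio of rRNA to mRNA counts was 0.306 ± 0.036 (SD, n = 5) in control and 0.317 ± 0.044 (SD, n = 5) in irradiated samples, higher in 3 pairs and lower in 2. The ratio of MT-RNR1 to MT-RNR2 was 0.241 ± 0.045 and 0.214 ± 0.043, lower in 4 of 5 pairs. Relative to mitochondrial mRNA neither rRNA was called, with -0.09 (adjusted p = 0.528) for MT-RNR1 and 0.08 (adjusted p = 0.463) for MT-RNR2. Mature rRNAs end in a short adenylate tail or none, so a poly-A library samples them in part, and these values are of the rRNA that entered it.

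Mature mitochondrial tRNAs carry no poly-A tail and are 59 to 75 bases long in the annotation, and a fragment that also touched a neighbouring gene was not counted. The 6 tRNA genes with at least 10 free bases on a side held between 2 and 55476 counts over the 10 samples, with a median of 464.5, and 4 of them reached 200 counts. The other 16 held 0 to 101 counts, with a median of 6, and 0 of them reached 200. MT-TQ, MT-TW and MT-TS1 had 0 counts in all 10 samples. MT-TP alone held 96.0% of the counts on tRNA genes. Free sequence did not by itself go with counts: MT-TN and MT-TK, with 31 and 25 free bases on a side, held 3 and 2 counts, fewer than MT-TV, which has 0 free bases and held 16. The level of mature tRNAs was not measured here.

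The 4 tested tRNA genes are shown with up to 31 bases of the unannotated sequence on each side, because their values are the ones that could be tested. The gene is in capitals, flanking bases in no gene are in lower case, and all are from GRCh38, written 5′ to 3′ on the strand of the gene. MT-TP, the tRNA for proline, lies at chrM:15954-16054 on the minus strand with the control region on its 5′ side. MT-TF, for phenylalanine, lies at chrM:546-647 on the plus strand at the other end of the control region. MT-TC, for cysteine, at chrM:5730-5826, and MT-TY, for tyrosine, at chrM:5826-5903, are both on the minus strand, and the free bases 3′ of MT-TC hold the origin of light-strand replication.
MT-TP: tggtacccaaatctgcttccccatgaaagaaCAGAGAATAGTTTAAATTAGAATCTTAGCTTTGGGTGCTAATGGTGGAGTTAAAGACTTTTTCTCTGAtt
MT-TF: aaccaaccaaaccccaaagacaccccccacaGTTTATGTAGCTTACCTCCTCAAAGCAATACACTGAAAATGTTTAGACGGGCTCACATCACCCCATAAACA
MT-TC: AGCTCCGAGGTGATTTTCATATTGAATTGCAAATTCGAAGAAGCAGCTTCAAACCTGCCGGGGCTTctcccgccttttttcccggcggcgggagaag
MT-TY: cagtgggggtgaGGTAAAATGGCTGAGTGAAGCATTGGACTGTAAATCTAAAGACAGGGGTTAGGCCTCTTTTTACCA

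Among the 19 mitochondrial genes tested, MT-TP had the largest log2 fold change. It rose by a log2 fold change of 0.80 (SE 0.07, edgeR adjusted p = 0.000108). In control samples 1 to 5 it was at 44.1, 35.0, 53.5, 36.2 and 39.6 CPM and in irradiated samples 1 to 5 at 92.7, 53.7, 95.8, 63.4 and 61.9 CPM. The groups did not overlap, though the highest control sample and the lowest irradiated sample were nearly equal. MT-TP was the 1 member of 19 with groups apart, and over all genes tested 14.6% were apart in this direction. Counts on the gene were between 3602 and 9190 in a sample, so counting error was small beside the spread between replicates. The log2 ratio within pairs was 1.07, 0.62, 0.84, 0.81 and 0.64 for replicates 1 to 5. Over the alternative settings its log2 fold change stayed between 0.69 and 0.85, and it was called in each, with no replicate block as well.

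MT-TP also rose relative to the mitochondrial mRNAs, by 0.54 (SE 0.07, edgeR adjusted p = 0.000134), and it was the only member called on that scale. Per 1000000 mitochondrial mRNA counts, the MT-TP row held 685.9, 571.4, 611.8, 650.5 and 652.2 counts in control samples 1 to 5. In irradiated samples 1 to 5 it held 1173, 707.4, 923.3, 905.9 and 949.5. Every irradiated sample lay above every control sample, and the ratio within pairs was between 1.24 and 1.71. Set against MT-CYB, the nearest mRNA on the map, MT-TP held 9.12 ± 0.931 (SD, n = 5) counts per 1000 in control and 12.8 ± 2.55 (SD, n = 5) in irradiated samples, again higher in 5 of 5 pairs, but here the groups overlapped, with a control maximum of 10.3 and an irradiated minimum of 9.61. The difference was smallest in replicate 2 on both scales.

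The 3 other tested tRNA genes did not pass. MT-TC had 0.19 (SE 0.15, edgeR adjusted p = 0.321), MT-TY 0.15 (SE 0.15, edgeR adjusted p = 0.450) and MT-TF, at the far end of the control region, 0.10 (SE 0.24, edgeR adjusted p = 0.770). With 235 to 1123 counts over the 10 samples their standard errors were larger, so a change the size of that of the mRNAs was not detectable at this depth. The counts were unstranded, so the MT-TP row can hold RNA of both strands, which cannot be told apart.

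**Figure D4:**
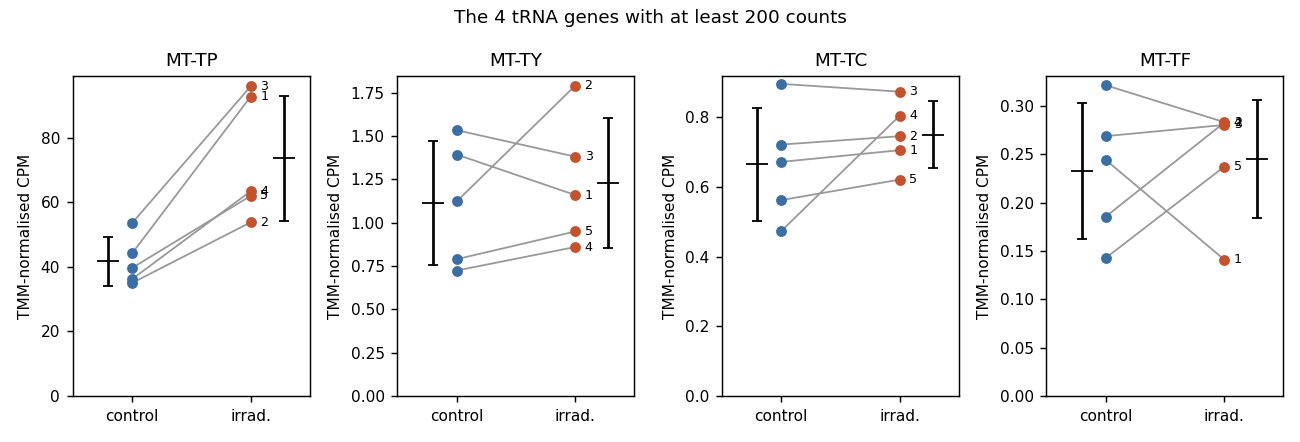
TMM-normalised CPM (y axis, separate scales) of the 4 tRNA genes with at least 200 counts in each sample, with grey lines joining the control and irradiated sample of 1 replicate number and black marks for the mean and SD of 5 samples. All irradiated samples of MT-TP lie above all control samples, at 53.7 to 95.8 against 35.0 to 53.5, whereas the groups overlap for MT-TY, MT-TC and MT-TF.

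Nuclear RNAs without a poly-A tail were examined beside MT-TP. Of 10 nuclear RNAs known to lack a tail, only RN7SL1 and SNORD3A reached 200 counts, and 5 of the 10 were at 0 counts. RN7SL1, the RNA of the signal recognition particle, was higher by 0.68 (SE 0.11, edgeR adjusted p = 0.00162), from 157 ± 23.0 to 250 ± 32.0 CPM (SD, n = 5 each), although its near-identical copy RN7SL2 makes its value uncertain. SNORD3A had 0.27 (SE 0.24, edgeR adjusted p = 0.390). The summed level of the list, nearly all of it RN7SL1, was between 119 and 179 CPM in control and between 200 and 287 CPM in irradiated samples. Its part in the MT-TP result was not tested.

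Copies of mitochondrial sequence in the nuclear genome can take or lose fragments of the genes described here. The table held 404 rows of such copies, of which 11 reached 200 counts, and together they held 53226 counts, 0.0575% of the number on the mitochondrial genes. MTCO1P12, a copy of MT-CO1, held 42186 of these and rose by 0.38 (SE 0.09, edgeR adjusted p = 0.00846), close to the value of MT-CO1 itself. MTATP6P1 and MTCO3P12, the next by counts, had 0.13 and 0.12 (edgeR adjusted p = 0.379 for both) and did not pass. Fragments that match both a gene and its copy equally well are not counted as unique, so the levels of the mitochondrial genes are lower bounds in the regions with such copies.

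The nuclear genes for the partner subunits of the same complexes moved mainly the other way. Of 81 tested nuclear-encoded subunits of the respiratory chain and ATP synthase, 50 were called lower, 3 higher and 28 did not pass, with a median log2 fold change of -0.24. Grouped by gene symbol, 21 of 39 were lower for complex I, 2 of 4 for complex II, 7 of 9 for complex III, 8 of 12 for complex IV and 12 of 17 for complex V. Symbol and complex can differ. NDUFA4, a complex IV subunit called lower at -0.28 (edgeR adjusted p = 0.00431), and NDUFA4L2, which did not pass, were counted with complex I by their symbols. The background share called lower was 22.7%. COX6B2, an isoform of a complex IV subunit known from testis, had the largest fall, -1.97 (SE 0.43, edgeR adjusted p = 0.00732), at a level below 1 CPM in both groups. SDHA, the flavoprotein of complex II, which has no mitochondrially encoded subunit, had the largest rise, 0.53 (SE 0.08, edgeR adjusted p = 0.00149), and near-identical pseudogene copies make its value uncertain. Across the alternative settings 40 to 63 subunits were called lower and 2 to 5 higher.

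Genes that transcribe, process and stabilise mitochondrial RNA were not called in 1 direction. The background for these and the following lists is 23.9% called higher and 22.7% called lower over all genes tested. Of the transcription genes 0 of 10 were higher and 3 lower. POLRMT, the mitochondrial RNA polymerase, had -0.07 (SE 0.04, edgeR adjusted p = 0.172), with 92.2 ± 9.7 CPM in control and 87.7 ± 7.8 CPM in irradiated samples. TFAM, which packages mitochondrial DNA and starts transcription, had 0.01, or -0.07 with library size alone (SE 0.07, edgeR adjusted p = 0.909 in the reported fit), with 31.2 ± 5.1 and 31.2 ± 2.4 CPM. The largest fall was that of MTERF2, a mitochondrial transcription termination factor family member, at -0.47 (SE 0.10, edgeR adjusted p = 0.00559), and 1 gene of the list was lower without replicate 1, 4 or 5. In the RNA processing list 6 of 13 rose and 1 fell, with a median of 0.18. GRSF1, which binds G-rich mitochondrial transcripts in RNA granules, rose by 0.39 (SE 0.06, edgeR adjusted p = 0.00221), from 91.0 ± 8.6 to 118.7 ± 5.2 CPM (SD, n = 5 each). Its groups did not overlap, and over all genes tested 14.6% were apart in the higher direction. HSD17B10, a component of the RNase P that cuts the 5′ ends of mitochondrial tRNAs, fell by 0.20 on the log2 scale (SE 0.05, edgeR adjusted p = 0.0134) and was not called without replicate 4 or 5. Of 7 genes for RNA stability and decay 2 rose and 0 fell, but 0 were called higher without replicate 1, 4 or 5, with no replicate block, or with library-size or upper-quartile scaling. PDE12, which removes poly-A tails from mitochondrial RNA, rose by 0.18 (SE 0.06, edgeR adjusted p = 0.0348) in the reported fit and lost the call in 9 alternatives, and LRPPRC, which stabilises mitochondrial mRNAs, did not pass, at -0.08 (SE 0.05, edgeR adjusted p = 0.184).

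Mitochondrial DNA replication and the supply of its nucleotides held larger single changes. Of 12 replication genes 2 rose and 4 fell, and 1 was higher without replicate 1 or 4. POLG, the mitochondrial DNA polymerase, rose by 0.19 (SE 0.04, edgeR adjusted p = 0.00828), DNA2, a nuclease and helicase shared with the nucleus, fell by 0.47 on the log2 scale (SE 0.11, edgeR adjusted p = 0.00973), and TWNK, the replicative helicase, did not pass, at 0.14 (SE 0.06, edgeR adjusted p = 0.0818). With library size alone (edgeR adjusted p = 0.0531) or a minimum of 1 count (0.0633) POLG was not called, and 0 replication genes were higher. In nucleotide supply 2 of 11 rose and 3 fell. RRM2B, the p53-induced small subunit of ribonucleotide reductase, rose by 1.44 (SE 0.05, edgeR adjusted p = 8.62e-06). It was at 61.1, 73.3, 78.2, 72.3 and 77.7 CPM in control samples 1 to 5 and at 169, 205, 185, 208 and 216 CPM in irradiated samples 1 to 5. TK2, the mitochondrial thymidine kinase and the other member that rose, did so by 1.05 (SE 0.06, edgeR adjusted p = 2.97e-05). In both, each irradiated sample was above each control sample, as in 14.6% of all genes tested. NT5M, a mitochondrial deoxynucleotidase, fell by 1.09 on the log2 scale (SE 0.12, edgeR adjusted p = 0.000310), from 2.63 to 1.20 CPM.

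Of the 11 regulators of mitochondrial biogenesis 4 fell, 1 rose and 6 did not pass. PPARGC1A, the coactivator PGC-1α, fell by 1.30 on the log2 scale (SE 0.15, edgeR adjusted p = 0.000436). It was at 54.8, 43.7, 81.5, 43.2 and 48.9 CPM in control samples 1 to 5 and at 24.6, 25.6, 20.1, 18.1 and 19.7 CPM in irradiated samples 1 to 5. ESRRG, an orphan nuclear receptor that works with it, fell by 1.99 on the log2 scale (SE 0.23, edgeR adjusted p = 0.000369), from 19.4 to 4.93 CPM. The rise was that of MYC, at 0.49 (SE 0.14, edgeR adjusted p = 0.0253), higher in 4 of 5 pairs. It was not called without replicate 1, 3 or 5, and 2 regulators were called lower without replicate 1, 4 or 5. Of 13 translation factors 1 rose, GFM2, a ribosome recycling factor (0.46, SE 0.05, edgeR adjusted p = 0.000428), and 3 fell, the largest fall being that of MTRFR, a release factor homologue (-0.28, SE 0.07, edgeR adjusted p = 0.0122). Mitoribosomal proteins gave 7 higher and 16 lower of 77, beside 23.9% higher and 22.7% lower of all genes tested. Their values lay between MRPS23 (0.48, SE 0.07, edgeR adjusted p = 0.000852) and MRPS17 (-0.76, SE 0.11, edgeR adjusted p = 0.00113). The number lower was 33 with library size alone, 10 without replicate 2 and 7 without replicate 4 or 5. Of the translation factors 1 was lower without replicate 2, 3, 4 or 5. Mitophagy genes gave 3 higher and 3 lower of 10, with the receptor OPTN at 0.76 (SE 0.07, edgeR adjusted p = 0.000171), and 1 was higher without replicate 1 or 4 and 1 lower without replicate 4 or 5. Over these lists without the mitoribosomal and respiratory chain lists, 17 of 87 rose and 21 fell, below the 23.9% and near the 22.7% of all genes tested. MRPL12, which fell, is in the transcription list and in the mitoribosomal list and was counted in both. With library size alone as scaling the numbers were 10 and 33.

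**Figure D5:**
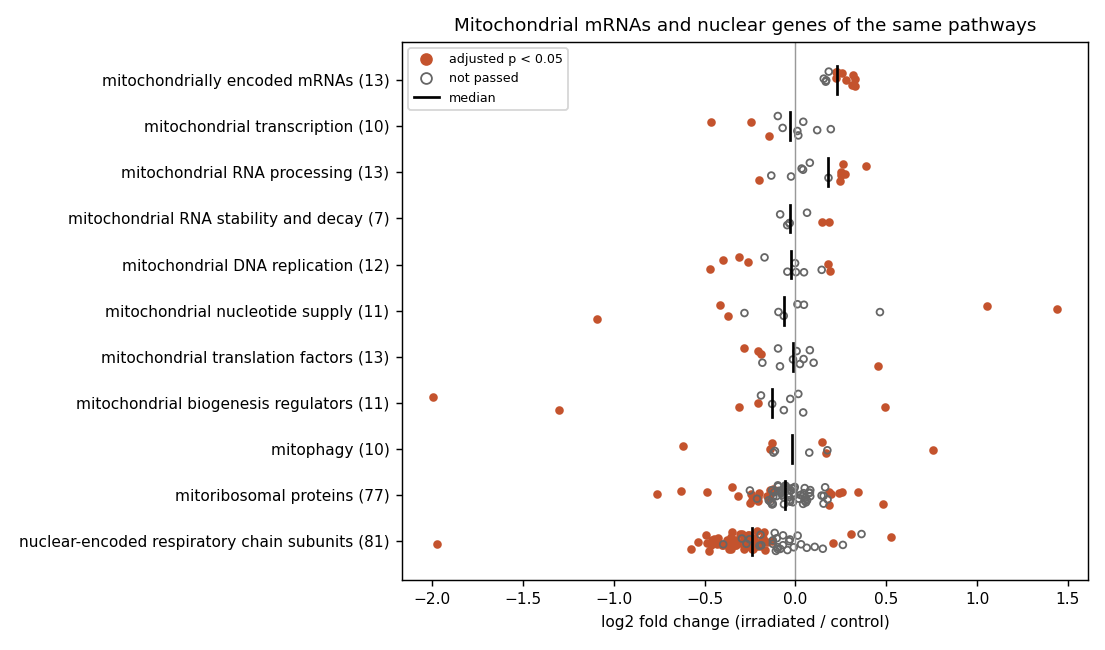
log2 fold change of irradiated over control samples (x axis) for the 13 mitochondrial mRNAs and for nuclear genes of each mitochondrial pathway, 1 row of points a list with the number tested in parentheses, filled where the adjusted p was under 0.05 and with a black bar at the median. The mitochondrial mRNAs all lie between 0.16 and 0.33, and the nuclear-encoded respiratory chain subunits have a median of -0.24.

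Other measures moved with the treatment and between replicates. Of 12 cell cycle genes 11 were called lower, with a median log2 fold change of -1.95, and their summed level was 316, 818, 283, 850 and 803 CPM in control samples 1 to 5 and between 163 and 226 CPM in irradiated samples. Control samples 1 and 3 were thus lower than the other 3 controls. With replicates 1 and 3 left out together, 10 mitochondrial genes were called higher and 0 lower. Markers of other cell types reached 200 counts for 6 of 13. Their summed level was between 123 and 422 CPM in control and between 60.0 and 207 CPM in irradiated samples. SLC12A1, a marker of the thick ascending limb, held 129694 counts. By group mean it made up 178 of 200 CPM in control and 60.9 of 96.0 CPM in irradiated samples. UMOD, a marker of the same segment, was at 0 counts. Of these markers 2 were called higher, COL1A1 at 0.78 (edgeR adjusted p = 0.000108) and PECAM1 at 0.72 (edgeR adjusted p = 0.00519), and 1 lower, SLC12A1 at -1.80 (edgeR adjusted p = 0.000121), which was highest in replicate 2 of each group. Of the 10 tested epithelial markers 8 did not pass, with a median over the 10 of 0.16 and a summed level of 2301 to 2859 CPM in control and 2343 to 3236 CPM in irradiated samples. The other 2 were called lower, AQP1 at -0.61 (edgeR adjusted p = 0.00635) and CDH1 at -0.18 (edgeR adjusted p = 0.0346), the latter in 4 of 5 pairs and not called without replicate 1, 2, 3 or 5. The part of these in the mitochondrial values was not tested.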

How the data were processed

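RNA from 5 control and 5 irradiated RPTEC/TERT1 samples was sequenced as poly-A libraries. Adapters were removed by the authors with Trim-Galore, STAR aligned the reads to GRCh38, and its GeneCounts option gave a count for each GENCODE gene. The deposited table holds these raw counts with no scaling or filter. STAR counts unique fragments that touch 1 gene, and those touching more are left out. The annotation release is not given in the sources used here, and the labels and the study's methods name different library kits. Strand was checked on the counts: of protein-coding genes lying wholly under exons of the opposite strand, 17 of 17 were at 0 counts, against 10.7% of 12729 others, so the counts are unstranded.

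The study's design was kept: a minimum of 200 summed counts for a gene and replicate number as a block. Fits used edgeR 4.0.16 (glmQLFit, glmQLFTest, TMM) in R 4.3.3 with Benjamini-Hochberg adjustment over 19006 genes, and DESeq2 1.42.0 served as an alternative. Fitting steps were tested on simulated data. Samples were paired by replicate number. Residuals of samples with the same number correlated at 0.217 to 0.508, those of different numbers at -0.3545 to 0.317, with a median of -0.129. These ranges overlapped, with replicate 2 at 0.217, so the correlations do not establish the pairing of every replicate. No 2 replicates differed by as little as sampling noise (lowest chi-square per gene 8.50). Replicates 4 and 5 were the closest in each group, at 15.1 in control and 8.50 in irradiated samples. The next lowest values were 57.1 in control and 40.4 in irradiated samples, so replicates 4 and 5 were much more alike than the others. Of the 61587 identifiers, 61369 matched a symbol, and tRNA coordinates were read from the GRCh38 annotation. TMM factors were 0.915 to 1.06.

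All mitochondrial mRNAs and rRNAs were named, with the 4 tRNAs of most counts, the gene of largest rise and of largest fall among called members of each list, the 3 nuclear copies of most counts, and TFAM, POLRMT, LRPPRC, PPARGC1A and TWNK. The markers and individual genes given beside a result were added to these. One gene that this rule names is not reported here. The members and lists were chosen with earlier results of these data known. Alternatives were other scalings, count filters, DESeq2, no replicate block and leaving out replicates.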

Additional observations from a re-analysis of the deposited data

Results flagged for a closer look

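Replicate 3 stood apart from the other 4 samples of its group in 17 of 52 groups of 5 samples examined with Dixon's test, in every case as the highest sample, where chance would give about 1 group in 20. The genes share samples, so these are not independent events. In control sample 3 the mitochondrial share of counts was 10.7%, against 7.78% to 8.61% in the other controls.

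Among control samples, replicate 3 had 19744 CPM of MT-RNR2 (others 14383 to 15820), 4916 CPM of MT-ND1 (others up to 3531) and 4088 CPM of MT-ND2 (up to 2824). It also had 6440 CPM of MT-CO2 (others up to 4403), 699.9 CPM of MT-ATP8 (up to 486), 9146 CPM of MT-ATP6 (up to 6483), 1101 CPM of MT-ND3 (up to 812), 575 CPM of MT-ND4L (up to 407) and 5645 CPM of MT-CYB (up to 4512).

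Among irradiated samples, replicate 3 had 25392 CPM of MT-RNR2 (others up to 19828), 5780 CPM of MT-ND1 (up to 4055), 5264 CPM of MT-ND2 (up to 3611) and 652 CPM of MT-ND4L (up to 506). It had 11891 CPM of MT-ND4 (others up to 9055), 7295 CPM of MT-ND5 (up to 5872) and 7625 CPM of MT-CYB (up to 5589).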

How the results depend on the processing

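Of the log2 fold changes of named genes under an alternative, 833 kept their direction and side of the threshold, 54 kept the direction and lost the call, 8 gained a call and 23 changed sign, none of them called in either fit (lowest adjusted p 0.210). TFAM was at -0.065 with library size alone, -0.022 with upper-quartile scaling, -0.025 with a minimum of 1 count, -0.0028 with no replicate block, -0.073 without replicates 1 and 3, and -0.062 to 0.042 with 1 replicate left out. MT-TF was at -0.035 to 0.27 with 1 replicate left out. Relative to mitochondrial mRNA, TMM over the mitochondrial mRNAs gave MT-ATP8 0.0074, MT-ND3 0.036, MT-ND4 0.0080 and MT-ND5 0.0050, and leaving out replicates 1 and 3 gave MT-ATP8 0.036, MT-TC 0.066, MT-TF 0.092 and MT-TY 0.16. On that scale 1 replicate left out gave -0.074 to 0.015 for MT-ATP8, -0.0067 to 0.042 for MT-CO3, -0.017 to 0.011 for MT-ND3, -0.21 to 0.026 for MT-RNR1, -0.34 to 0.025 for MT-TF and -0.23 to 0.0099 for MT-TY. The 11 mitochondrial genes called higher became 1 with no replicate block, where pairing by number is ignored, and 5 to 11 when 1 replicate was left out (5 without replicate 1 and without replicate 4). DESeq2 called 14 and library size alone 8, and 0 were called lower under any setting. The cause was not tested. Relative to mitochondrial mRNA, MT-TP was the only mitochondrially encoded gene called higher under each setting (0.44 to 0.60). With a minimum of 1 count 1 mitochondrially encoded gene, MT-TL1, named here after its value was seen, was called lower (-1.26, adjusted p = 0.0201). Over the 8 lists of nuclear genes from transcription to mitophagy, 17 higher and 21 lower became 10 and 33 with library size alone. The number higher was 10 with a minimum of 1 count and 10 to 16 with 1 replicate left out, and the number lower was 12 to 17 with 1 replicate left out. Nuclear copies called higher were 1 in the reported fit, 0 with no replicate block, 1 to 2 with 1 replicate left out and 2 without replicates 1 and 3, an alternative chosen after seeing the data, and 2 were called lower with a minimum of 1 count. The mean over pairs of the difference in the mitochondrial share lay between 1.19 and 1.39 percentage points with 1 replicate left out. Library size alone moved the median log2 fold change of all genes from -0.01 to -0.09, and the share of calls that were higher from 51.4% to 38.0%. Depth limited the tRNA genes, 18 of which could not be tested.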
